A study of Mus musculus with 4 samples.

Results

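The 10 genes described here encode the MHC class I antigen presentation machinery: the heavy chains H2-K1, H2-D1, H2-Q7 and H2-T23, the shared light chain B2m, the peptide handling proteins Tap1, Tap2, Tapbp and Erap1, and the transactivator Nlrc5. They were taken by gene symbol from a table of read counts for 25759 symbols, and all 10 were found in it. RNA came from alveolar epithelial type II cells, the surfactant-making cells of the lung alveolus, of C57BL/6 mice aged 14 weeks. There were 2 libraries from mTOR Tg mice, labelled as Sftpc-mTOR conditional transgenic animals with active mTOR in the epithelium, and 2 libraries from wild-type (WT) mice. Sftpc is the surfactant protein C gene, the hallmark of type II cells, and the sources used here do not say how the transgene was switched on. The labels do not say whether each library came from 1 mouse or a pool, so p-values measure only the spread between these samples, which may be technical. mTOR is the kinase through which nutrient and growth factor signals set the rate of cell growth. The question here is what the class I transcripts of these cells do when it is active.

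Nearly all nucleated cells carry class I molecules, which show short peptides made inside the cell to CD8 T cells. The proteasome cuts proteins into peptides, the Tap1 and Tap2 transporter moves them into the endoplasmic reticulum, Erap1 trims them, and Tapbp (tapasin) holds the empty heavy chain with B2m beside the transporter until a peptide binds. Interferons raise this machinery together, partly through Nlrc5, which acts on class I promoters with RFX, CREB and NF-Y factors. In the lung, type II cells carry class I molecules and, unusually for epithelium, class II molecules as well.

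Promoters of 3 heavy chain genes and of B2m are shown here as the members whose window holds a pair of regulatory box cores known from class I genes. The lines below give the 250 bases before the RefSeq gene start (GRCm38.p6), written 5′ to 3′ on the strand of the gene. Capitals mark a kappa B element (GGGGATTCCC), an interferon response element (AGTTTCACTT, or in B2m a general form, TTTC followed 2 bases later by another TTTC, here on the opposite strand), and an X2 box core TGACG followed 19 to 21 bases later by a Y box core ATTGG. The windows are chr17:34000348-34000597 on the minus strand for H2-K1, chr17:35262844-35263093 on the plus strand for H2-D1, chr17:35438905-35439154 on the plus strand for H2-Q7 and chr2:122147437-122147686 on the plus strand for B2m.
H2-K1: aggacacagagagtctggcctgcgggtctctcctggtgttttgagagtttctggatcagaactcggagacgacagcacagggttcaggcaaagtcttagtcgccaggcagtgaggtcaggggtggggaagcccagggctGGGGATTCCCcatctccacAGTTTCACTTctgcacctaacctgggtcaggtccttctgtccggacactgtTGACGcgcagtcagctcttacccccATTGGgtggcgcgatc
H2-D1: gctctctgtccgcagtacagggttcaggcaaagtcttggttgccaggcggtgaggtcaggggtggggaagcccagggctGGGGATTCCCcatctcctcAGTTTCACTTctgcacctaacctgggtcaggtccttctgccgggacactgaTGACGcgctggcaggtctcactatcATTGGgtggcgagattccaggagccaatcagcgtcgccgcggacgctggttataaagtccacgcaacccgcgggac
H2-Q7: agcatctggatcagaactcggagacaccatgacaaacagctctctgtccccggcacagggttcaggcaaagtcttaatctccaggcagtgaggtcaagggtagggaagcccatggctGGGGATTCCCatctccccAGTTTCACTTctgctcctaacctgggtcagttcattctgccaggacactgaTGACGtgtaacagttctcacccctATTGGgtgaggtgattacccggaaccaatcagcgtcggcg
B2m: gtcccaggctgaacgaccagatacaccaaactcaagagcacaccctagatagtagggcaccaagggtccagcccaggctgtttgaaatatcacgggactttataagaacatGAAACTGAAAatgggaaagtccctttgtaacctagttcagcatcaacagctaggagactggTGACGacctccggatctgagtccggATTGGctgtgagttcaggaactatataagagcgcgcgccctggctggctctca
The paired X2 and Y cores stood in 4 of the 8 members with a window in the RefSeq table (these 4 genes) and in 0.189% of all 32851 windows of the same length, searched on both strands. The kappa B letters stood in the H2-K1, H2-D1 and H2-Q7 windows and in 0.0852% of all windows. The class I form of the interferon element stood in the same 3 windows and in 0.128% of all, and the general form in the H2-T23 and B2m windows and in 2.98% of all. The class I form can overlap the general form where further letters match, which it did not in these windows. The kappa B letters and the class I form were read from the H2-K1 window, and the spacing of the cores was chosen after these windows had been read. A match is a description of the sequence. The H2-T23 window, like those of the other heavy chain genes H2-Q4, H2-Q6 and H2-T22, lacked the paired cores, but that of H2-M3 held them. The kappa B letters also stood in the H2-Q6 window. The class I form of the interferon element also stood in the H2-Q4, H2-Q6 and H2-T22 windows, and in H2-T22 it overlapped the general form. The Tap1, Tapbp and Erap1 windows held none of the paired cores, kappa B letters or interferon element forms, and Tap2 and Nlrc5 had no window in the table. The H2-D1, Tapbp and Erap1 windows lie inside the spans of the GENCODE genes, which include transcripts with an earlier start. The H2-T23 window lies partly inside its gene, and those of Tap1 and B2m overlap theirs only at the edge. A window without a match therefore does not describe other starts of these genes.

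Of the 10 genes, 7 lie in or next to the MHC on chromosome 17 (GENCODE M21, GRCm38): Tapbp at 33915899 to 33929292, H2-K1 at 33996017 to 34000347, Tap1 at 34187553 to 34197225, Tap2 at 34203527 to 34216321, H2-D1 at 35262730 to 35267499, H2-Q7 at 35439155 to 35443773 and H2-T23 at 36029773 to 36032855. B2m lies on chromosome 2 (122147686 to 122153083), Nlrc5 on chromosome 8 (94434356 to 94527272) and Erap1 on chromosome 13 (74639568 to 74693201). Heavy chain genes resemble each other, so reads may be split among them in a way the table does not show. Of the 50-base windows in annotated H2-Q7 transcripts, 26.4% also occur in transcripts of another gene, and 14.0% in those of H2-Q10. The share was 9.63% for H2-K1, 12.8% for H2-D1 and 13.6% for H2-T23, between 0.442% and 2.87% for Tap1, Tap2 and Tapbp, and 0% for B2m, Erap1 and Nlrc5. Counts of the heavy chains, above all H2-Q7, are therefore uncertain. The shares count distinct windows without regard to expression, so they do not measure how far the counts are off. The related symbols H2-Q8 and H2-Q9 have no row in the table of counts.

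The libraries held 21972124 and 20273396 counts for mTOR Tg replicates 1 and 2, and 18146693 and 19018785 counts for WT replicates 1 and 2. mTOR Tg replicate 1 stood apart by gene length and club cell markers, and mTOR Tg replicate 2 had the lowest red cell markers. Deviations were taken in log2 from the mean of the other 3 libraries, over quartiles of genes by total exon length. In mTOR Tg replicate 1 the median deviation was 0.41 over the shortest quartile and -0.47 over the longest. The same values were -0.12 and 0.16 in mTOR Tg replicate 2. Summed club cell markers (8 of 8 counted) reached 163268 and 57659 CPM in the mTOR Tg libraries, and 85610 and 92152 CPM in WT. The biological coefficient of variation was 0.325 within mTOR Tg and 0.0891 within WT. Sftpc, the defining marker of type II cells, was at 72565 and 73804 normalised CPM in mTOR Tg and 75841 and 61011 in WT. The club cell marker Scgb1a1 was at 149336 and 43867 normalised CPM in mTOR Tg and 70877 and 72589 in WT, above Sftpc in mTOR Tg replicate 1 and in WT replicate 2. CPM are counts scaled to a common library total, and normalised CPM are further scaled with TMM factors, edgeR's correction for library composition. Mtor itself was at 38.9 and 61.8 normalised CPM in mTOR Tg and 56.8 and 56.7 in WT. The sources used here do not say whether transgene reads are counted under Mtor, so its level does not check the genotype labels.

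The 10 class I genes together took 0.215% and 0.269% of counts in mTOR Tg replicates 1 and 2, and 0.214% and 0.188% in WT. Per kilobase of exon, H2-D1 and H2-K1 were the highest members, at mean levels of 355 and 318 normalised CPM per kb in mTOR Tg and 272 and 251 in WT. In WT they ranked above 99.2% and 99.1% of tested genes on this scale. On the same scale B2m followed at 213 in mTOR Tg and 173 in WT, then Tapbp at 58.3 in mTOR Tg and 51.9 in WT. The middle of the order was H2-T23 (26.6 in mTOR Tg and 23.8 in WT) and Tap2 (16.5 in mTOR Tg and 14.0 in WT). Lower still were Erap1 (5.21 in mTOR Tg and 5.70 in WT), Tap1 (4.45 in mTOR Tg and 3.92 in WT), H2-Q7 (3.34 in mTOR Tg and 1.34 in WT) and Nlrc5 (0.208 in mTOR Tg and 0.136 in WT). The ranges over the 4 libraries overlapped between H2-D1 and H2-K1, between H2-K1 and B2m, between Erap1 and Tap1 and between Tap1 and H2-Q7. Within each library, though, each of these pairs kept the order given here. The other neighbours in this order did not overlap. Nlrc5 was among the lowest tested genes, above 2.54% of them in WT.

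**Figure D1:**
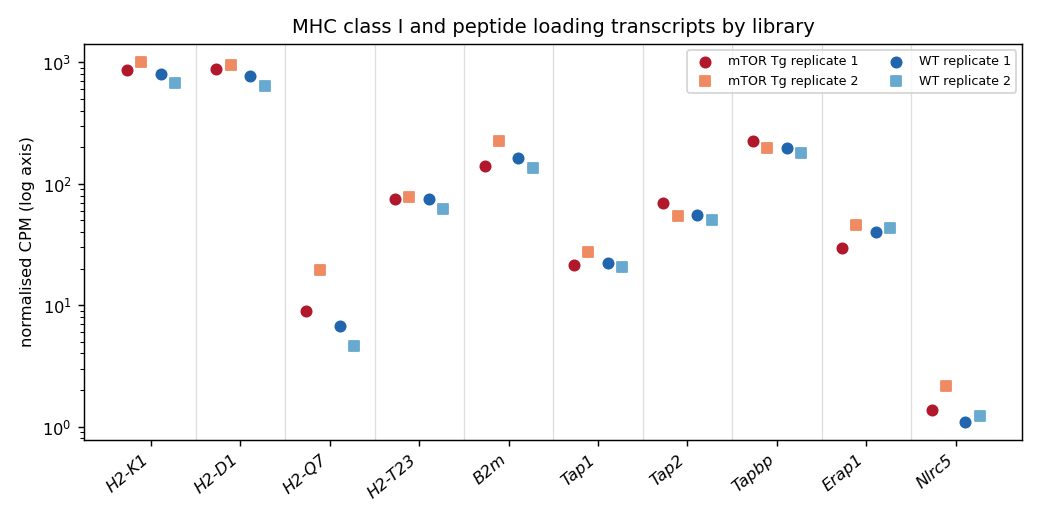
Normalised CPM (log axis) of the 10 genes in each library, mTOR Tg left of WT within each gene, 1 point per library. H2-K1 lies between 675 and 1008 CPM and Nlrc5 between 1.10 and 2.15 CPM, and the H2-Q7 points of mTOR Tg, at 9.03 and 19.5 CPM, lie above those of WT, at 6.75 and 4.65 CPM.

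None of the 10 genes passed the test between genotypes. The edgeR quasi-likelihood test, adjusted over 13306 genes at a threshold of 0.05, called 0 members higher and 0 lower in mTOR Tg, where the background was 0% of genes higher and 0% lower. At an unadjusted p under 0.05 it gave 1 member higher (H2-Q7) and 0 lower, where 1.54% of genes were higher and 0.917% lower. DESeq2 called 0 members, against 0.0676% of genes higher and 0.0225% lower, and limma-voom called 0 members and 0 genes. The log2 fold change, mTOR Tg over WT, was above 0 in 9 of 10 members and in 50.9% of all tested genes. Its median over the members was 0.27, against 0.01 over all genes tested. Relative to the WT mean, the members' median lay at 0.23 in mTOR Tg replicate 1 and 0.39 in mTOR Tg replicate 2, and the WT replicates lay 0.10 above and 0.10 below their own mean. In 6 members each mTOR Tg library exceeded each WT library, and in 0 the reverse held, where the background was 17.6% of genes above and 17% below. With 2 libraries against 2, no exact permutation test can give a two-sided p below 0.333. In bulk RNA, more class I RNA per cell and more cells of a type rich in class I cannot be told apart.

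**Figure D2:**
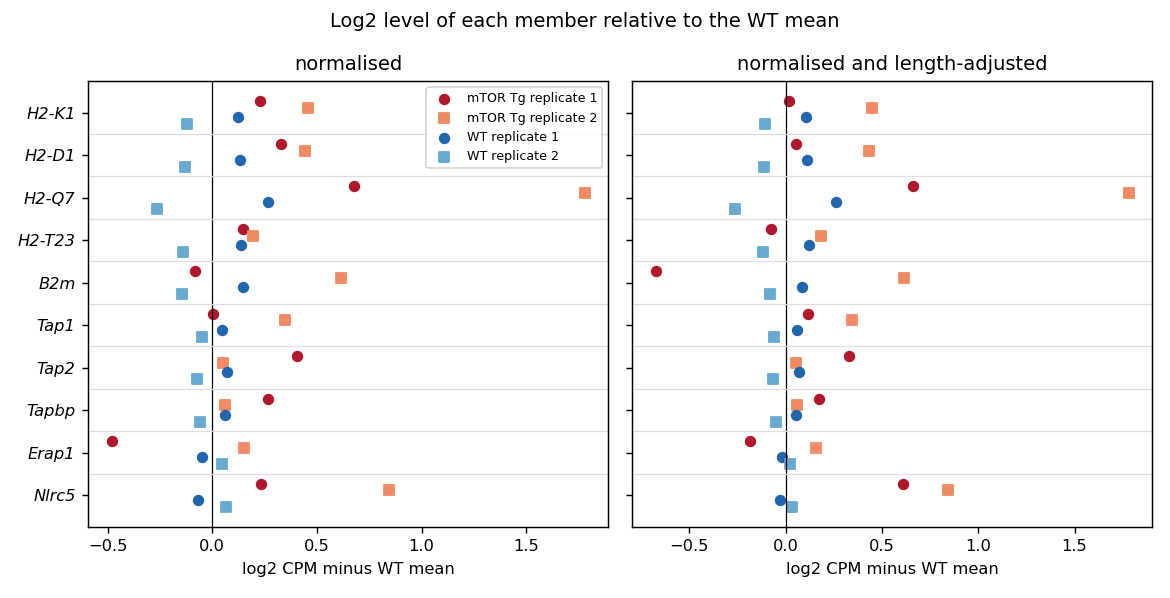
Log2 CPM of each gene minus its WT mean in the 4 libraries (left), and the same after adjusting each library for its trend with exon length (right). H2-Q7 lies at 0.68 and 1.78 in mTOR Tg on the left, and B2m falls on opposite sides of 0 in the 2 mTOR Tg libraries.

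The classical heavy chains H2-K1 and H2-D1, which present peptides to CD8 T cells, were both somewhat higher in mTOR Tg by value. H2-K1 was at 862 and 1008 normalised CPM in mTOR Tg, against 800 and 675 CPM in WT. H2-D1 was at 879 and 951 CPM in mTOR Tg, against 767 and 639 CPM in WT. Neither pair of groups overlapped, but the gap between mTOR Tg replicate 1 and WT replicate 1 was smaller than the gap between the WT replicates. The log2 fold change was 0.34 (SE 0.23) for H2-K1 and 0.38 (SE 0.22) for H2-D1, both with an edgeR adjusted p of 0.860. With 1 library left out, H2-K1 ranged from 0.22 (without WT replicate 2 or mTOR Tg replicate 2) to 0.47, and H2-D1 from 0.25 (without WT replicate 2) to 0.52, both highest without WT replicate 1. The ratio of H2-D1 to H2-K1 counts within a library, which no scaling touches, was 1.02 and 0.944 in mTOR Tg and 0.958 and 0.946 in WT.

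H2-Q7 encodes a Qa-2 molecule, a nonclassical class I protein anchored to the membrane by lipid, and it had the largest log2 fold change of the 10 genes. It had 184 and 407 counts in mTOR Tg, against 123 and 92 in WT, or 9.03 and 19.5 normalised CPM in mTOR Tg, against 6.75 and 4.65 CPM in WT. The groups did not overlap, and mTOR Tg replicate 2 was more than double mTOR Tg replicate 1. The log2 fold change was 1.32 (SE 0.43, unadjusted p = 0.0246, edgeR adjusted p = 0.860), with 2 of 2 mTOR Tg libraries above WT. Leaving out mTOR Tg replicate 2 gave 0.67, and leaving out mTOR Tg replicate 1 gave 1.78. Its close relatives H2-Q6 and H2-Q4, named after their values were seen, had smaller log2 fold changes, 0.46 (SE 0.30) and 0.069 (SE 0.24). H2-Q5, with 25.5% of its 50-base windows also in H2-Q7, lay between H2-Q7 and H2-Q6 at 0.76 (SE 0.50). Its counts were low, 25 and 53 in mTOR Tg and 24 and 18 in WT. H2-Q6 was at 12.9 and 20.6 CPM in mTOR Tg and 13.6 and 10.8 CPM in WT, and H2-Q4 at 45.6 and 60.8 CPM in mTOR Tg and 55.7 and 45.7 CPM in WT. The ratio of H2-Q7 to H2-Q4 counts was 0.198 and 0.321 in mTOR Tg and 0.121 and 0.102 in WT. Summed over H2-Q6 and H2-Q7, which share sequence, the level was 21.9 and 40.1 CPM in mTOR Tg and 20.4 and 15.4 CPM in WT.

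H2-T23 encodes Qa-1, which shows leader peptides of other class I chains to receptors of NK cells. It was at 75.6 and 78.2 normalised CPM in mTOR Tg, against 75.2 and 62.1 CPM in WT. The log2 fold change came to 0.16 with an SE of 0.20 (edgeR adjusted p = 0.860). Leaving out WT replicate 1 gave 0.31, leaving out WT replicate 2 gave 0.032, and adjusting for exon length in the fit gave 0.056. mTOR Tg replicate 1 and WT replicate 1 were nearly equal.

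B2m, the light chain that every class I heavy chain here needs to reach the surface, split the mTOR Tg pair. It was at 140 and 227 normalised CPM in mTOR Tg replicates 1 and 2, against 163 and 134 CPM in WT replicates 1 and 2. The groups overlapped, with mTOR Tg replicate 2 above every other library and mTOR Tg replicate 1 between the WT libraries. Its log2 fold change, 0.30 with an SE of 0.29 (edgeR adjusted p = 0.860), was 0.61 when mTOR Tg replicate 1 was left out and -0.088 when mTOR Tg replicate 2 was. Set against the classical heavy chains in the same library, the ratio of B2m to H2-K1 plus H2-D1 counts was 0.0803 and 0.116 in mTOR Tg, and 0.104 and 0.102 in WT. B2m has the shortest exon length of the 10 genes, 860 bases. It stayed between the WT libraries in mTOR Tg replicate 1, the library in which short genes as a whole were high. The part of gene length in the B2m values was not tested.

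**Figure D3:**
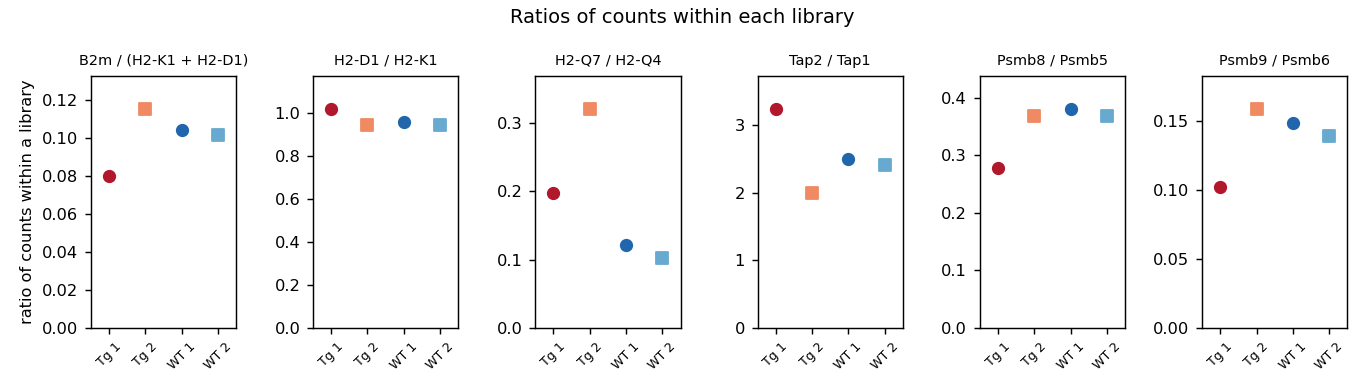
Ratios of counts within each library for pairs of class I and proteasome genes, 1 point per library, with the mTOR Tg libraries left of WT and each axis starting at 0. The B2m ratio and the Psmb8 and Psmb9 ratios are lowest in mTOR Tg replicate 1, and the H2-Q7 to H2-Q4 ratio is higher in both mTOR Tg libraries than in WT.

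The transporter subunits Tap1 and Tap2, which work as a pair, were high in different mTOR Tg libraries. Tap1 was at 21.5 and 27.3 normalised CPM in mTOR Tg replicates 1 and 2, against 22.2 and 20.7 CPM in WT. Tap2 was at 69.8 and 54.6 CPM in mTOR Tg replicates 1 and 2, against 55.5 and 50.1 CPM in WT. Tap1 was thus highest in mTOR Tg replicate 2 and Tap2 in mTOR Tg replicate 1, and both genes overlapped between the groups. The ratio of Tap2 to Tap1 counts was 3.25 and 2.002 in mTOR Tg and 2.50 and 2.42 in WT. Exon lengths are 5476 bases for Tap1 and 3781 for Tap2, and the part of gene length in this ratio was not tested. The log2 fold change was 0.19 (SE 0.22) for Tap1 and 0.24 (SE 0.22) for Tap2, each with an edgeR adjusted p of 0.860. Leaving out mTOR Tg replicate 2 gave 0.0028 for Tap1 and 0.40 for Tap2. With mTOR Tg replicate 1 left out instead, they were 0.35 and 0.049.

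Tapbp (tapasin), which bridges the transporter and the empty class I molecule, was at 226.5 and 196.2 normalised CPM in mTOR Tg, against 196.0 and 180.4 CPM in WT. Its log2 fold change was 0.17 (SE 0.20, edgeR adjusted p = 0.860), and mTOR Tg replicate 2 and WT replicate 1 were nearly equal. That value was 0.060 with mTOR Tg replicate 1 left out and 0.27 with mTOR Tg replicate 2 left out, and 0.11 with WT replicate 2 left out. Erap1, the aminopeptidase that trims peptides to class I length, was at 29.7 and 46.2 CPM in mTOR Tg, against 40.1 and 42.9 CPM in WT. It was the 1 member with a negative log2 fold change, -0.13 (SE 0.27, edgeR adjusted p = 0.897). Leaving out mTOR Tg replicate 1 gave 0.15, and leaving out mTOR Tg replicate 2 gave -0.48. The mTOR Tg libraries lay on either side of the WT pair.

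Nlrc5, the class I transactivator, had 28 and 45 counts in mTOR Tg, against 20 and 24 in WT. In normalised CPM it was at 1.37 and 2.15 in mTOR Tg, against 1.10 and 1.21 in WT. Both mTOR Tg libraries were above WT, mTOR Tg replicate 2 by more than mTOR Tg replicate 1, and the log2 fold change was 0.61 (SE 0.40, edgeR adjusted p = 0.860). With mTOR Tg replicate 2 left out it was 0.25, and with mTOR Tg replicate 1 left out 0.89.

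**Figure D4:**
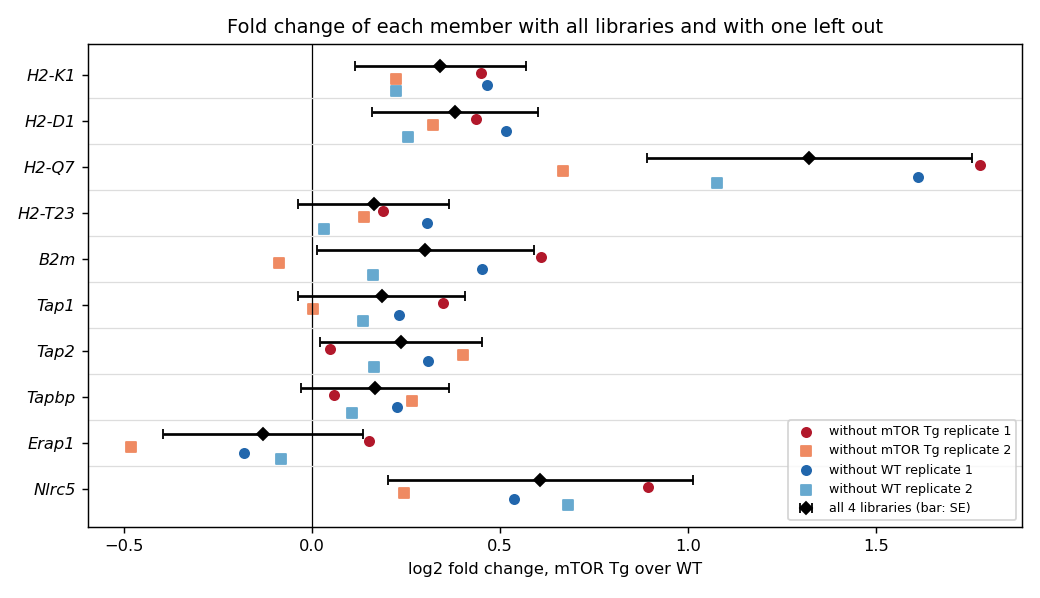
Log2 fold change, mTOR Tg over WT, of each gene with all 4 libraries (diamond, with its SE) and with each library left out (coloured points). The median over the members is 0.27 with all libraries and 0.39 without mTOR Tg replicate 1, and the points of B2m and Erap1 fall on both sides of 0.

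With mTOR Tg replicate 1 left out, edgeR called H2-Q7 and B2m higher and 0 members lower, where 1.25% of genes were called higher and 0.948% lower. Leaving out mTOR Tg replicate 2 gave calls for H2-Q7 and Tap2, higher, and Erap1, lower, where 21.8% of genes were called higher and 23.6% lower. With either WT library left out 0 members were called. The background was 0.0729% of genes higher and 0.00729% lower without WT replicate 1, and 0.0802% higher and 0.0292% lower without WT replicate 2.

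Which of the 10 genes separated the genotypes depended on the scale. After each library was adjusted for its trend with exon length, 4 members exceeded WT in each mTOR Tg library (H2-Q7, Tap1, Tapbp and Nlrc5), where the background was 17.5% of genes above and 17.8% below. H2-K1, H2-D1 and H2-T23 overlapped on that scale, where mTOR Tg replicate 1 came to 0.02, 0.05 and -0.08 log2 units from the WT mean. B2m came to -0.67 in mTOR Tg replicate 1 and 0.61 in mTOR Tg replicate 2. On CPM of raw library totals 5 members lay above (H2-D1, H2-Q7, Tap2, Tapbp and Nlrc5), where the background was 15.3% of genes above and 18.7% below. H2-Q7, Tapbp and Nlrc5 exceeded WT in each mTOR Tg library on all 3 scales, but for Tapbp and Nlrc5 some margins were slight. Tapbp was at 196.2 normalised CPM in mTOR Tg replicate 2 and 196.0 in WT replicate 1. After the length adjustment these 2 libraries were at 0.061 and 0.053 log2 units. Nlrc5 was at 1.274 CPM of raw totals in mTOR Tg replicate 1 and 1.262 in WT replicate 2. The share of all genes above WT in this way on all 3 scales was not computed, and the scales rest on the same counts.

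Markers of other cells that carry class I are given beside these values. Of 8 pan-leukocyte genes, Rac2 and Lcp1 had enough counts to be tested, and Rac2 was at 1.28 and 1.77 normalised CPM in mTOR Tg and 0.549 and 0.859 CPM in WT. Ptprc (CD45) had 0 and 3 counts in mTOR Tg and 0 and 3 in WT, and Cd53 had 0 in every library, against a floor of 3 counts, or 0.137 to 0.165 CPM. The summed leukocyte list, 146 and 259 CPM in mTOR Tg and 247 and 253 CPM in WT, was almost all Lcp1, at 155 and 249 normalised CPM in mTOR Tg and 245 and 241 in WT. T and NK cell markers summed to 0.228 and 0.0987 CPM in mTOR Tg and 0 and 0.0526 CPM in WT, with 6 of 10 at 0 everywhere, among them Cd3e and Cd8a. Summed macrophage markers were 11.1 and 7.89 CPM in mTOR Tg and 9.09 and 7.62 CPM in WT, with C1qb and Adgre1 at 0. Summed B cell markers were 11.6 and 13.2 CPM in mTOR Tg and 10.7 and 9.41 CPM in WT, nearly all of it Cd79b, and Ms4a1 was at 0. Summed dendritic cell and monocyte markers (6 of 7 in the table) were 13.3 and 14.5 CPM in mTOR Tg and 14.1 and 14.3 CPM in WT. Endothelial markers, from cells that also carry much class I, were lower by value in 11 of 12 genes, and summed to 88.2 and 89.9 CPM in mTOR Tg and 141 and 157 CPM in WT. Type II cell markers had a median of -0.62 in mTOR Tg replicate 1 and 0.13 in mTOR Tg replicate 2 relative to the WT mean, and club cell markers of 0.81 and -0.38. In the same order of libraries the medians were 1.21 and -0.085 for ciliated, 1.19 and 0.22 for mesothelial, 0.48 and 0.035 for alveolar type I and -0.050 and 0.62 for fibroblast markers. Red cell markers had medians of 0.12 and -1.54, and summed to 3235 and 1041 CPM in mTOR Tg and 2548 and 3683 CPM in WT. Thus both mTOR Tg libraries differed from WT in their markers. By these medians mTOR Tg replicate 1 lay further from WT for type II, club, ciliated, mesothelial and alveolar type I markers. The other, mTOR Tg replicate 2, where the class I median was highest, lay further for red cell and fibroblast markers. The part of these shifts in cell markers in the class I values was not tested.

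The rest of the class I pathway was read from lists chosen with earlier results of these data known, and none of their genes passed the edgeR test over all genes. Of 25 other class I heavy chain symbols, 20 were in the table, 7 were tested and 7 had no count in any library. Of the 7 tested, 6 were higher by value, with a median log2 fold change of 0.09. H2-Q5 had 25 and 53 counts in mTOR Tg and 24 and 18 in WT (log2 fold change 0.76, SE 0.50), and H2-T10 had 27 and 21 counts in mTOR Tg and 18 and 16 in WT (0.37, SE 0.42). Among class I-like proteins that pair with B2m, Fcgrt, the neonatal Fc receptor that carries IgG and albumin across epithelium, was at 48.8 and 37.3 normalised CPM in mTOR Tg and 34.3 and 31.1 CPM in WT (0.40, SE 0.22). Mr1, which presents vitamin metabolites to MAIT cells, was at 26.2 and 25.5 CPM in mTOR Tg and 24.3 and 25.1 CPM in WT, and the iron regulator Hfe at 18.2 and 21.9 CPM in mTOR Tg and 19.6 and 19.8 CPM in WT.

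The immunoproteasome, which replaces the standard catalytic subunits under interferon and favours peptides that fit class I, and its PA28 cap were tested as 5 genes. All 5 were higher by value, with a median log2 fold change of 0.30, but their median relative to WT was 0.47 in mTOR Tg replicate 1 and 0.08 in mTOR Tg replicate 2. Psmb8 was at 33.4 and 26.3 normalised CPM in mTOR Tg and 25.1 and 23.2 CPM in WT (0.30, SE 0.22). Psmb9 was at 15.0 and 13.1 CPM in mTOR Tg and 12.3 and 11.5 CPM in WT (0.24, SE 0.22), and the PA28 subunit Psme2 at 80.6 and 60.3 CPM in mTOR Tg and 61.9 and 52.5 CPM in WT (0.30, SE 0.23). The 3 constitutive subunits they replace had a median of 0.47, with mTOR Tg replicate 1 at 0.83 and mTOR Tg replicate 2 at 0.024 relative to the WT mean. Their leading gene Psmb5 was at 120 and 71.2 CPM in mTOR Tg and 66.0 and 63.0 CPM in WT (0.57, SE 0.29). The ratio of immune to constitutive subunit counts was lowest in mTOR Tg replicate 1 for 2 of the 3 pairs and highest there for the other. It was 0.278 and 0.369 in mTOR Tg and 0.381 and 0.368 in WT for Psmb8 over Psmb5, and 0.102 and 0.159 in mTOR Tg and 0.148 and 0.139 in WT for Psmb9 over Psmb6. For Psmb10 over Psmb7 it was 0.356 and 0.252 in mTOR Tg and 0.290 and 0.282 in WT. Exon lengths are 3381 bases for Psmb8 and 899 for Psmb5, and 3660 for Psmb9 and 1872 for Psmb6. They are 1705 for Psmb10 and 3421 for Psmb7. The immune subunit was the longer gene in the 2 pairs lowest in mTOR Tg replicate 1, where short genes as a whole were high, and the shorter in the other. The part of gene length in these ratios was not tested. The ratios given here and above were chosen after the values were seen.

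Of 7 chaperones and editors that fold class I in the endoplasmic reticulum, 5 were higher by value, with a median log2 fold change of 0.17. The chaperone Calr (calreticulin) was at 634 and 527 normalised CPM in mTOR Tg and 445 and 424 CPM in WT (0.42, SE 0.21). The chaperone Erp29 was at 64.4 and 47.0 CPM in mTOR Tg and 48.6 and 44.5 CPM in WT, and the peptide editor Tapbpl at 27.9 and 29.2 CPM in mTOR Tg and 25.5 and 23.6 CPM in WT. Of 6 peptidases outside that compartment, 3 were higher and 3 lower by value. The oligopeptidase Thop1, which destroys many cytosolic peptides, was at 40.9 and 21.5 CPM in mTOR Tg and 18.3 and 20.3 CPM in WT (0.69, SE 0.34). Tpp2, which trims long peptides, was at 23.99 and 40.8 CPM in mTOR Tg and 41.8 and 45.2 CPM in WT (-0.42, SE 0.30). Lnpep, the endosomal relative of Erap1 that serves cross-presentation, had 51 counts in mTOR Tg replicate 1 and 622 in mTOR Tg replicate 2, against 497 and 611 in WT (-0.85, SE 0.96). Exon lengths are 14144 bases for Lnpep and 10078 for Tpp2. Both were lowest in mTOR Tg replicate 1, where genes with the longest total exon length were low as a whole. The part of gene length in these values was not tested.

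Factors that act on the promoters shown above had no common direction, with 6 of 13 higher and 7 lower by value and a median log2 fold change of -0.03. The 3 with the smallest p, Creb1, Nfya and Atf1, were lower by value and each lowest in mTOR Tg replicate 1. Their exon lengths are 13742, 7315 and 3060 bases, and the part of gene length in their values was not tested. Creb1 was at 22.2 and 45.6 normalised CPM in mTOR Tg and 42.3 and 47.9 CPM in WT (-0.41, SE 0.36), Nfya at 30.6 and 35.7 CPM in mTOR Tg and 40.3 and 37.1 CPM in WT (-0.22, SE 0.20), and Atf1 at 34.9 and 54.9 CPM in mTOR Tg and 57.8 and 52.2 CPM in WT (-0.29, SE 0.27). The interferon genes Ifng, Ifnb1, Ifnl2 and Ifnl3 had 0 counts in every library, so a level above the floor of 0.137 to 0.165 CPM was not seen. Receptors and signalling genes split evenly, with 6 of 12 higher by value and a median of -0.01. Of these, Socs3, a feedback inhibitor of cytokine signalling, was at 162 and 190 CPM in mTOR Tg and 145 and 117 CPM in WT (0.42, SE 0.22), and the interferon gamma receptor chain Ifngr2 at 19.8 and 21.5 CPM in mTOR Tg and 16.3 and 16.02 CPM in WT (0.35, SE 0.20). Stat2, which carries type I interferon signals, was at 15.6 and 23.5 CPM in mTOR Tg and 26.4 and 25.1 CPM in WT (-0.40, SE 0.26).

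Interferon-stimulated genes were tested in 24 of 28 cases, with 14 higher and 10 lower by value and a median log2 fold change of 0.16. Their median relative to WT was 0.35 in mTOR Tg replicate 1 and -0.09 in mTOR Tg replicate 2, an order opposite to that of the class I members (0.23 and 0.39). Bst2 (tetherin), a membrane protein that holds budding viruses, was at 24.7 and 22.9 CPM in mTOR Tg and 14.7 and 13.5 CPM in WT (0.76, SE 0.21, unadjusted p = 0.0116, edgeR adjusted p = 0.860). The antiviral enzyme gene Rsad2 had 24 and 14 counts in mTOR Tg and 25 and 34 in WT (-0.74, SE 0.45), and Ifi35 was at 52.5 and 24.4 CPM in mTOR Tg and 24.5 and 25.5 CPM in WT (0.62, SE 0.38). Class II presentation genes had a median of 0.27 with 7 of 8 tested genes higher by value, at 0.21 and 0.32 in the mTOR Tg libraries. Among them H2-DMb2, a peptide exchange subunit, had 49 and 45 counts in mTOR Tg and 21 and 32 in WT (0.71, SE 0.36), the invariant chain Cd74 was at 2403 and 2363 CPM in mTOR Tg and 2087 and 1685 CPM in WT (0.34, SE 0.25), and H2-Ab1 at 541.4 and 656 CPM in mTOR Tg and 541.1 and 415 CPM in WT (0.32, SE 0.24).

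**Figure D5:**
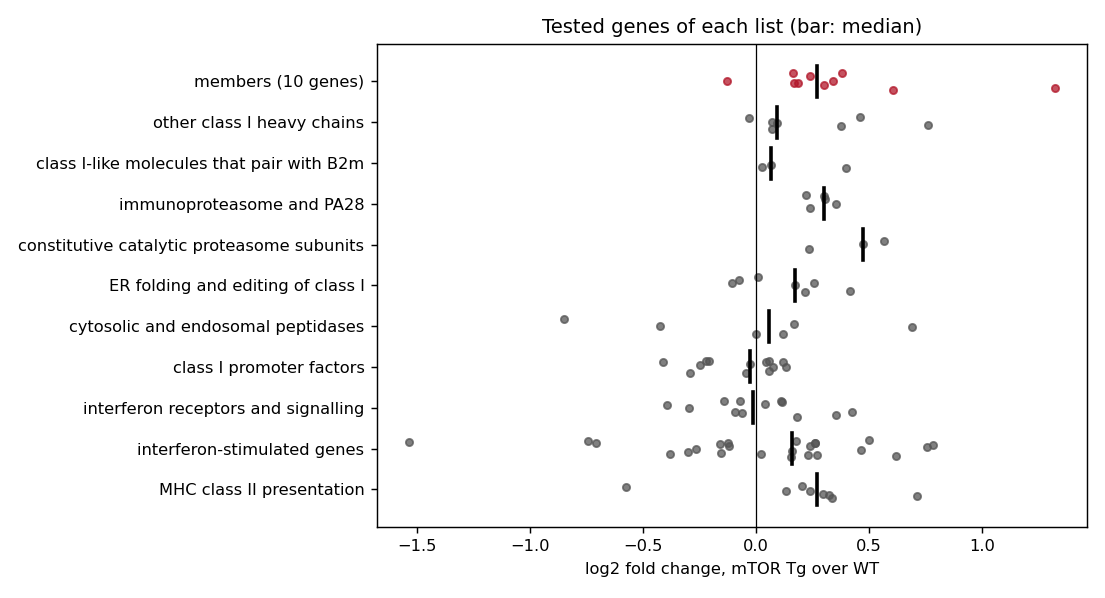
Log2 fold change, mTOR Tg over WT, of each tested gene (point) in the 10 members and in the other lists of the pathway, with a bar at each list's median. The members' median is 0.27, the immunoproteasome list's 0.30, the constitutive subunits' 0.47 and the promoter factors' -0.03.

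Over the 4 libraries, the genes whose profile lay nearest to the mean centred log2 profile of the 10 members were Tmem88, Syt11, C1qtnf1, Col6a2 and Pik3ip1, at Euclidean distances of 0.0404 to 0.0676 log2 units. The members' mean profile was 0.01 in mTOR Tg replicate 1, 0.33 in mTOR Tg replicate 2, -0.08 in WT replicate 1 and -0.25 in WT replicate 2.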

How the data were processed

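Per the submitters' processing notes, the authors used HISAT2 and edgeR with the mouse build mm10, and no versions or settings are named there. The deposited table holds raw read counts, whole numbers, for 4 libraries by gene symbol. Counting program, annotation and strand setting: not given in the sources used here. Columns were tied to samples by the library names in the labels.

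The test was the quasi-likelihood F test of edgeR 4.0.16 (R 4.3.3), mTOR Tg against WT, with no term but genotype. It used TMM scaling and the 13306 genes that passed filterByExpr at a minimum count of 10. Benjamini-Hochberg adjustment ran over all of these genes, with a threshold of 0.05. An SE is the log2 fold change divided by the square root of F. Log2 CPM used a prior count of 2, and summed marker CPM are on raw library totals. Exon lengths and positions came from GENCODE M21, with a length for 98.7% of tested genes, and promoter windows from RefSeq (GRCm38.p6). Floors of 3 counts cover counting error only.

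All 10 members were named, and from each other list any gene passing the threshold and up to 3 with the smallest p. Members and lists were chosen with earlier results of these data known. Code was tested on simulated counts. Alternatives used DESeq2 1.42.0, limma-voom (limma 3.58.1), other scalings and filters, a length offset (lowess, span 0.3), a replicate block and each library left out.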

Additional observations from a re-analysis of the deposited data

How the results depend on the processing

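Each genotype had 2 libraries, which limits the precision of every value here. Across 15 alternatives, 146 of 149 fold changes of single members kept their direction. Most of these alternatives refit the same 4 libraries, so their agreement is not independent. The reversals were Erap1 without mTOR Tg replicate 1 (0.15), B2m without mTOR Tg replicate 2 (-0.088) and B2m with the replicate block and length offset together. Members called were 0 in the main test and in each alternative that kept all 4 libraries, and 0 to 3 with 1 library left out. Such a fit leaves 1 library in a genotype, and that lone library is taken to vary like the remaining pair. The share of all genes called in more than 1 such fit was not computed, so a repeated call of a member cannot be judged against it. The log2 fold change of H2-Q7 was 0.67 with mTOR Tg replicate 1 alone against the WT pair. It was 1.78 with the other mTOR Tg library alone.

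Genes called over the whole table numbered 0 in the main test, 12 by DESeq2, and 11 to 6200 with 1 library left out, the highest without mTOR Tg replicate 2. The members' median of 0.27 ranged from 0.16 to 0.39 with 1 library left out, lowest without WT replicate 2. Over the same fits B2m ranged from -0.088 to 0.61 and Erap1 from -0.48 to 0.15. The cause was not tested.

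The replicate numbers are not said to mark a shared litter, batch or day, and same-numbered libraries deviated from their group means with a correlation of 0.0708 across genes. With the replicate number as a block 37 genes were called, and 7 with the block and the length offset together, none of them a member in either. In that combined fit the log2 fold change of B2m was -0.030. Nlrc5 could not be tested at a minimum count of 50.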

Other observations

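Ciita, the class II counterpart of Nlrc5, had 166 and 522 counts in mTOR Tg, against 494 and 440 in WT. Its log2 fold change was -0.57 (SE 0.52), below 0, while 7 of the 8 tested class II presentation genes, all but Ciita itself, were above 0. The kinase gene Jak2, which signals below the interferon gamma receptor, was at 31.5 and 81.8 normalised CPM in mTOR Tg replicates 1 and 2, against 58.1 and 62.7 CPM in WT. The interferon-induced GTPase gene Gbp4 had 0 and 10 counts in mTOR Tg, against 14 and 13 in WT. Their exon lengths are 9535 bases for Ciita, 5030 for Jak2 and 7494 for Gbp4, and all 3 were lowest in mTOR Tg replicate 1. In that library the quartile of genes with the longest total exon length had a median log2 deviation of -0.47. The part of gene length in these values was not tested. These genes were named after their values were seen, and none passed the edgeR test over all genes.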
